A study of Homo sapiens with 39 samples.

Results

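The androgen response genes are 50 genes known to respond to androgen in prostate cells or usually counted with such genes. They were taken from a written list of symbols, each symbol was matched to its Ensembl ID in the count table, and all 50 of 50 were found among 63187 genes. Each gene was then sorted by whether inhibitors of poly(ADP-ribose) polymerase (PARP) moved its RNA with or against inhibitors of the androgen pathway.

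RNA was sequenced from C4-2B, a castration-resistant human prostate cancer line that was derived from LNCaP. The 39 libraries make 13 groups of 3 and belong to a panel of treatments (21 libraries, replicates A, B and C) and a time course (18 libraries, replicates 1, 2 and 3). All cells grew in RPMI medium with fetal bovine serum, so that every group, DMSO included, was exposed to the hormones of that serum. In the panel, 5 days of treatment used DMSO as the vehicle, abiraterone at 5 µM, enzalutamide at 20 µM, olaparib at 1 µM or talazoparib at 10 nM. The panel's combinations were abiraterone at 5 µM plus olaparib at 1 µM, and enzalutamide at 20 µM plus talazoparib at 10 nM. In the time course, cells received DMSO, olaparib at 1 µM or olaparib at 5 µM for 1 day or for 5 days.

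Androgens such as testosterone and dihydrotestosterone switch on genes of luminal prostate secretion, lipid and sugar metabolism and growth control. Abiraterone blocks CYP17A1, an enzyme of androgen synthesis, and enzalutamide blocks the action of androgen in the cell. Olaparib and talazoparib both occupy the catalytic site of PARP enzymes and hold them on damaged DNA, and talazoparib holds them more tightly.

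Promoter sequences are shown for the androgen response genes that held AGAACA, the hexamer that each arm of an androgen response element resembles. RefSeq's promoter table (build GRCh38.p14, 250 bases before to 50 bases after each start, 300 bases in all) matched 42 of the 50 genes. ELL2, TPD52, ZMIZ1, ZBTB10, KRT19, PLPP1, TMPRSS2 and ADAMTS1 had no entry. Read on both strands, the hexamer stood in 3 of the 42 promoters (7.14%) and in 4056 of all 27305 promoters (14.9%). The 3 genes, FKBP5, PMEPA1 and STK39, all belong to the group that PARP inhibitors moved against the androgen pathway inhibitors, which had 18 promoters in the table (16.7%). A pair of the hexamers facing each other across 3 bases, the full element, stood in 0 of the 42 and in 1 of the 27305 (0.00366%). In FKBP5 (chr6:35728534-35728833, minus strand) the hexamer begins at the first transcribed base. In PMEPA1 (chr20:57711423-57711722, minus strand) it begins 22 bases after it, and in STK39 (chr2:168247546-168247845, minus strand) 112 bases before it. A match is a description of letters in a short window and not a site of measured binding. Each promoter is written 5′ to 3′ on the gene's strand, with the hexamer in capitals.
FKBP5: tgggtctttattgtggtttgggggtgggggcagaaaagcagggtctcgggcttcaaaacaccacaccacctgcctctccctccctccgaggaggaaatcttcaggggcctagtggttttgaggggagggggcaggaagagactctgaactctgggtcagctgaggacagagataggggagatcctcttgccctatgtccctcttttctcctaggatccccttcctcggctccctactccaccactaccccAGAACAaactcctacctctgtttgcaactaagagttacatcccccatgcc
PMEPA1: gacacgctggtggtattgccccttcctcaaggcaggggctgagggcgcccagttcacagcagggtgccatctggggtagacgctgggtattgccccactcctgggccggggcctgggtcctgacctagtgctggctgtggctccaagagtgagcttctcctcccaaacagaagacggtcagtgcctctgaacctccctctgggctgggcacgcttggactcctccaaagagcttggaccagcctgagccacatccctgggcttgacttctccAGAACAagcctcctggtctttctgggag
STK39: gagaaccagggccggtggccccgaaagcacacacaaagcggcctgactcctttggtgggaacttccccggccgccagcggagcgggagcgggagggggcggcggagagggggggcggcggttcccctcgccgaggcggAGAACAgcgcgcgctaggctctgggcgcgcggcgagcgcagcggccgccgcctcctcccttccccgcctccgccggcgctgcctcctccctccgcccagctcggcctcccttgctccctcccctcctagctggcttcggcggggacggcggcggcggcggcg

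Libraries held 26932205 to 49833473 counts (median 37223200). All 50 genes passed the filter on low counts in both experiments, where 18625 genes of the panel and 18502 of the time course were tested. Levels are given as CPM, which edgeR computes from each count and the library's TMM-scaled total, with the experiments scaled apart, so levels of the panel and the time course are not set against each other. A log2 fold change is given ± its standard error (3 libraries per group), and a gene is said to have risen or fallen where the adjusted p of edgeR's quasi-likelihood test was under 0.05. The labels do not say whether replicates were separate cultures, so p-values measure only the spread between these libraries. In bulk RNA, fewer cells of a type and less RNA per cell cannot be told apart.

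Luminal prostate markers were expressed in every library. KLK3, the gene of prostate-specific antigen, was the highest of them at the median, with 289 CPM in the lowest library and 1074 in the median. KRT8 had 214 and 259.6 CPM, KRT18 172 and 244, HOXB13 156 and 236, and FOLH1 592 and 709. In every group with a pathway inhibitor, the combinations included, the mean of FOLH1 was above that of KLK3. These means were 998 and 485 CPM with abiraterone and 1027 and 304.5 with enzalutamide. Basal markers (KRT5, KRT14, TP63) summed to 0, 0.41 and 1.94 CPM in the lowest, median and highest library, with KRT14 the most abundant and the other 2 under 10 counts in every library. Neuroendocrine markers (CHGA, SYP, INSM1) summed to 0.814, 1.6 and 2.5 CPM, nearly all of it SYP. The leukocyte list (PTPRC, CD3E, CD68) summed to 2.92, 6.04 and 29.6 CPM, the fibroblast list (COL1A1, COL3A1, PDGFRA) to 10.7, 14.9 and 22.9, and the endothelial list (PECAM1, VWF, CDH5) to 7.68, 13.4 and 22.6. Their most abundant genes were CD68, COL1A1 and VWF, and CD3E, PDGFRA and PECAM1 were under 10 counts in every library. No marker of these lists was at 0 in every library.

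Some of these low markers moved with the groups. CD68, a lysosomal protein, changed by 1.32 ± 0.14 (adjusted p = 4.95e-08) with olaparib and by -0.73 ± 0.16 (adjusted p = 0.000417) with abiraterone in the panel, and by 2.26 ± 0.082 (adjusted p = 1.06e-20) with olaparib at 5 µM for 5 days. KRT14, with at most 68 counts in a library, changed by 1.33 ± 0.45 (adjusted p = 0.0209) with olaparib and by -3.27 ± 0.7 (adjusted p = 0.000211) with enzalutamide. COL1A1 rose with each of the 4 single agents, by 0.68, 0.60, 0.41 and 0.25 with abiraterone, enzalutamide, olaparib and talazoparib. SYP fell with each of the 4, by 1.15, 0.69, 0.70 and 0.69 on the log2 scale in the same order. PTPRC, with at most 47 counts, rose by 3.52 and 4.15 with abiraterone and enzalutamide, and COL3A1, with at most 29, by 2.93 and 2.65. VWF changed by 0.45 and -0.35 with these drugs. Their part in the results on androgen response genes was not tested.

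Together the 50 genes took 1.04% to 1.05% of a library's counts with DMSO in the panel. Abiraterone lowered that share to 0.551% to 0.559% and enzalutamide to 0.485% to 0.486%, while olaparib raised it to 1.15% to 1.18% and talazoparib to 1.12% to 1.14%. In the combinations it was 0.56% to 0.564% with abiraterone plus olaparib and 0.485% to 0.49% with enzalutamide plus talazoparib. In the time course the share was 0.94% to 0.945% with DMSO at day 5, 1.11% to 1.12% with olaparib at 1 µM and 1.18% to 1.2% with olaparib at 5 µM. The ranges of treated and DMSO libraries of the same experiment and day did not overlap in these groups. At day 1 they did, with 0.854% to 0.868% for DMSO, 0.836% to 0.858% at 1 µM and 0.847% to 0.855% at 5 µM. Per kilobase of exon, the highest DMSO levels in the panel were those of ABHD2, a serine hydrolase (219 CPM per kilobase), UAP1 (129) and PLPP1 (126). The lowest were those of the kinases SGK1 (0.644) and MAK (1.34).

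With abiraterone, 45 of the 50 genes fell, against 27.1% of all genes tested, and 2 rose, against 25.8%. With enzalutamide 47 fell (all genes 26.3%) and 1 rose (all genes 27%). Olaparib lowered 6 of the 50 (all genes 16.0%) and raised 34 (all genes 19.6%). Talazoparib lowered 5 (all genes 15.4%) and raised 25 (all genes 18.4%). Across the 50, the median log2 fold change was -0.91 for abiraterone, -1.02 for enzalutamide, 0.17 for olaparib and 0.10 for talazoparib, while the median over all genes lay between 0.00 and 0.02 in each. All 3 abiraterone libraries lay below all 3 DMSO libraries for 47 genes (all genes 29.2%) and above them for 2 (27.8%). For enzalutamide these counts were 46 below (28.4%) and 1 above (29.8%), for olaparib 6 (20.7%) and 32 (24.2%), and for talazoparib 7 (18.9%) and 23 (22.5%). The genes were listed with earlier results of these data known, so the counts describe them and test nothing.

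Sorting used the calls of the 4 single agents, which all share the same 3 DMSO libraries. In 23 of the 50 genes, marked against in the figures and called opposed here, the androgen pathway inhibitors and the PARP inhibitors moved the RNA in opposite directions, with all 4 agents past the threshold, against 4.69% of all genes tested. All 23 fell with abiraterone and enzalutamide and rose with olaparib and talazoparib (all genes 3.22%). In 4 genes, marked with and called concordant, all 4 agents moved the RNA the same way (all genes 10.1%): ARID5B rose with each, and PGM3, LMAN1 and GNAI3 fell with each. In 19 genes both androgen pathway inhibitors lowered the RNA but the PARP inhibitors had no shared call (all genes 14%). In the last 4, ACTN1, AKT1, SRF and ZMIZ1, abiraterone and enzalutamide had no shared call (all genes 57.9%). Of the 45 androgen response genes that both androgen pathway inhibitors lowered, PARP inhibitors raised 51.1% and lowered 6.67%. Of all 3991 genes that both lowered, PARP inhibitors raised 600 (15%) and lowered 789 (19.8%).

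The opposed group holds TMPRSS2, FKBP5, ADAMTS1, ALDH1A3, APPBP2, AZGP1, CAMKK2, ELL2, GUCY1A1, HERC3, HOMER2, INPP4B, KRT19, LIFR, MAK, MERTK, NCOA4, PIAS1, PLPP1, PMEPA1, RAB4A, STK39 and TSC22D1. Their log2 fold changes ran from -2.82 to -0.13 with abiraterone and from -3.55 to -0.15 with enzalutamide, and from 0.10 to 0.86 with olaparib and from 0.09 to 0.77 with talazoparib. The medians were -1.45, -1.25, 0.36 and 0.29. The smallest rises decide its edge. ALDH1A3, APPBP2, ELL2, INPP4B and NCOA4 left the group with total count scaling (18 genes left), and ALDH1A3, APPBP2 and ELL2 left it when only the groups compared were fitted (20 left). Without DMSO replicate A, B or C the group held 20, 21 and 21 genes. It held 21, 21 and 20 without olaparib replicate A, B or C, and 20, 21 and 19 without talazoparib replicate A, B or C. Every gene lost in this way was ALDH1A3, APPBP2, ELL2 or INPP4B, and no gene passed from the opposed group to the concordant group in any setting. Without replicate C of DMSO, GNAI3 left the concordant group, where talazoparib's change was -0.08 (adjusted p = 0.0888), and UAP1 joined it without olaparib replicate A or with total count scaling. Of the genes with no shared call of the pathway inhibitors, SRF left without DMSO replicate A or abiraterone replicate A, and TMEM50A joined without DMSO replicate B or enzalutamide replicate C.

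**Figure D1:**
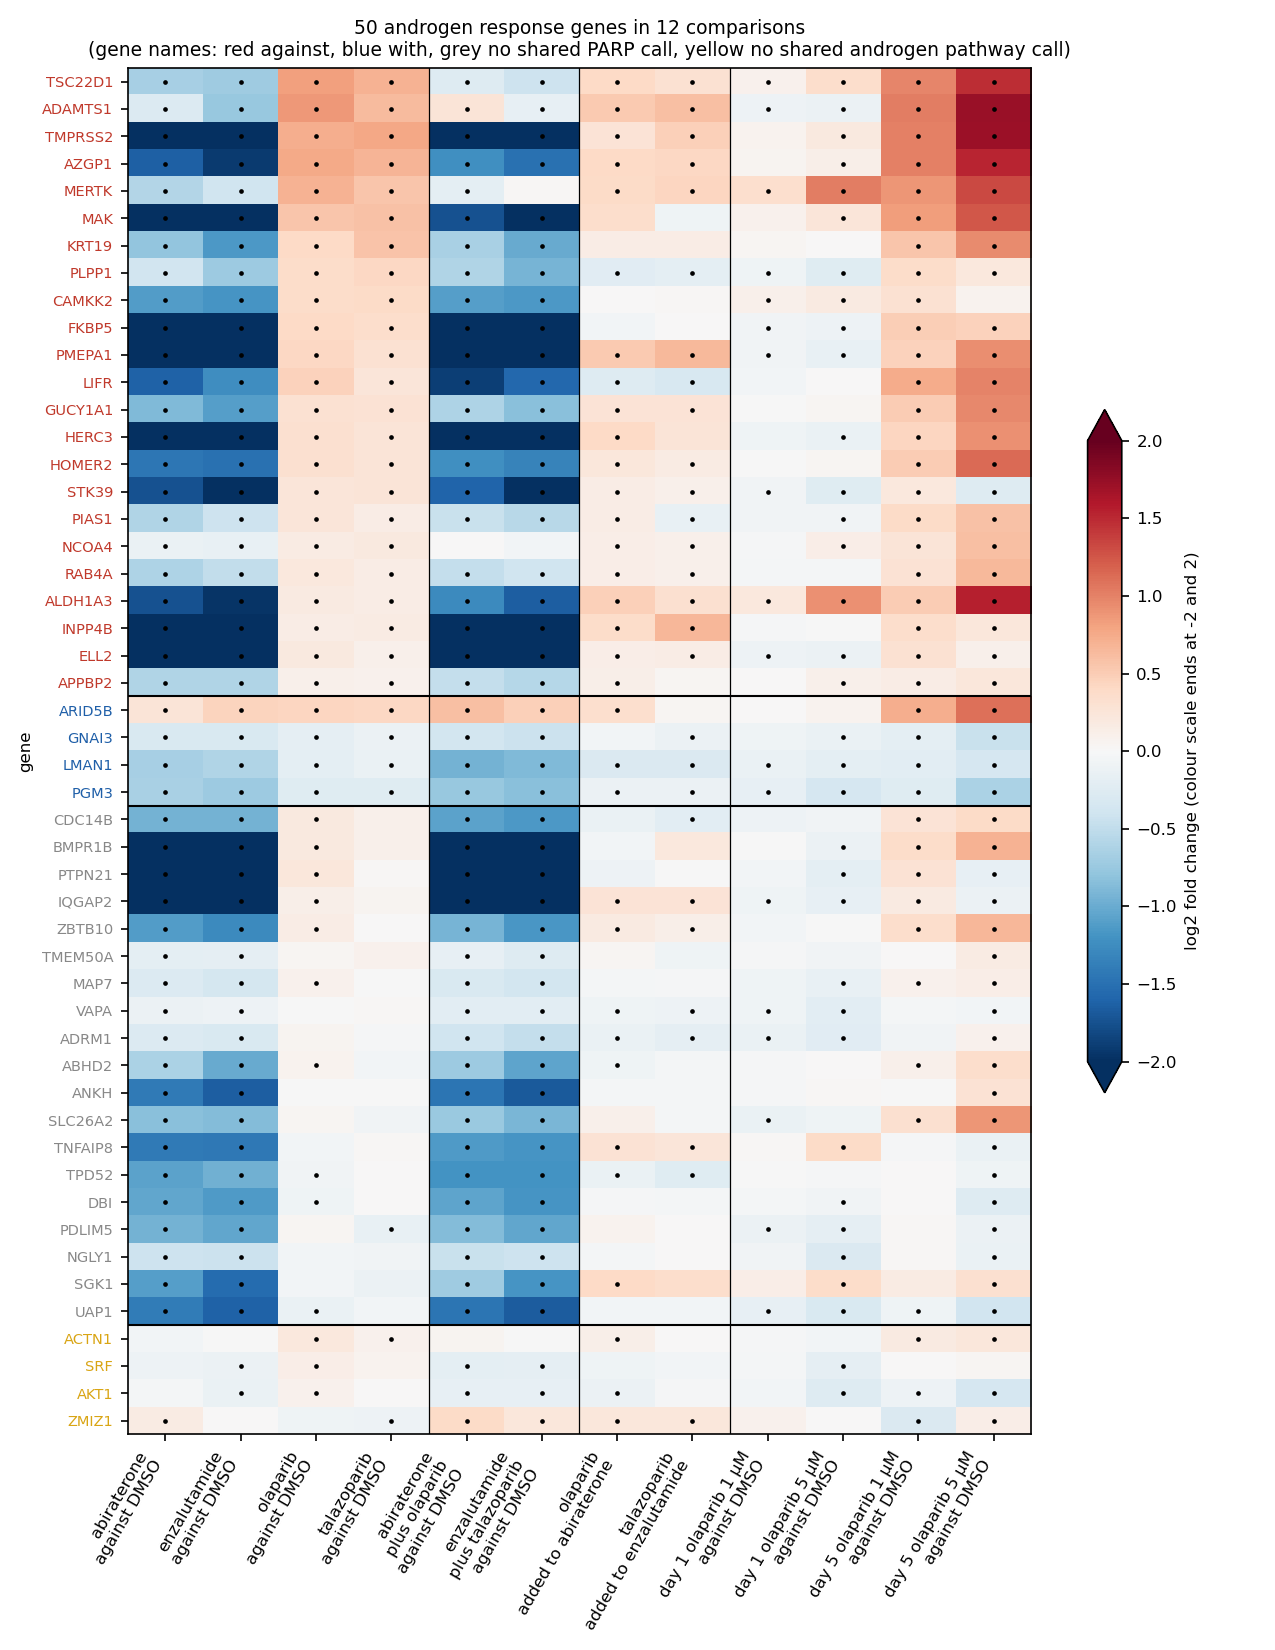
Log2 fold changes of the 50 androgen response genes (vertical axis, grouped by sorting) in 12 comparisons (horizontal axis), with color for the log2 fold change and a dot past the threshold. All 23 opposed genes are lower with abiraterone and enzalutamide and higher with olaparib and talazoparib.

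By role, the opposed genes made up 6 of the 9 surface, secreted and transport proteins, 7 of the 12 signaling enzymes, chaperones and G proteins, and 4 of the 8 nuclear factors. They were 2 of the 6 cytoskeleton and scaffold genes, 2 of the 11 genes of the secretory pathway and of sugar and lipid metabolism, and 2 of the 4 genes of protein turnover and survival. The metabolic list had the most falls with olaparib. Olaparib lowered 5 of its 11 genes and raised 3, with a median of -0.06, and talazoparib lowered 2 and raised 2, with a median of 0.00. In the surface list olaparib raised 7 of 9 and lowered 0, with a median of 0.47, and talazoparib raised 6 and lowered 0, with a median of 0.31. Of all genes, olaparib lowered 16.0% and raised 19.6%, and talazoparib 15.4% and 18.4%. No test compared the lists.

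Among surface and secreted proteins, TMPRSS2 (ENSG00000184012.14, chr21:41464300-41531116, minus strand) encodes a membrane serine protease of luminal prostate cells. TMPRSS2 stood at 283, 249.6 and 219 CPM with DMSO, at 43.1, 47.4 and 47.3 with abiraterone and at 37.2, 35.8 and 35 with enzalutamide. With olaparib it read 433, 417 and 391 CPM and with talazoparib 399, 458 and 418 CPM. Every abiraterone and enzalutamide library lay below every DMSO library, and every library of a PARP inhibitor alone lay above. Its log2 fold change was -2.44 ± 0.083 (adjusted p = 4.94e-13) with abiraterone and -2.80 ± 0.084 (adjusted p = 1.02e-13) with enzalutamide. It was 0.73 ± 0.072 (adjusted p = 9.85e-07) with olaparib and 0.77 ± 0.072 (adjusted p = 6.47e-07) with talazoparib, the largest rise of the 50 genes with talazoparib.

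ADAMTS1 (ENSG00000154734.16, chr21:26835755-26845409, minus strand) encodes a secreted metalloprotease that cuts proteoglycans. Its levels were 308, 301 and 289 CPM with DMSO, 253, 241 and 251 with abiraterone and 159, 191 and 178 with enzalutamide. Olaparib gave 548, 561 and 526 CPM and talazoparib 462, 472 and 466 CPM. The 5 groups did not overlap, and the olaparib libraries were the highest. ADAMTS1 changed by -0.27 ± 0.044 (adjusted p = 3.14e-05) with abiraterone and -0.76 ± 0.044 (adjusted p = 1.06e-11) with enzalutamide, and by 0.86 ± 0.043 (adjusted p = 4.55e-12) with olaparib, the largest rise of the 50 with that drug. Talazoparib moved it by 0.64 ± 0.043 (adjusted p = 6.14e-10).

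AZGP1 (ENSG00000160862.13, chr7:99966720-99976042, minus strand) encodes a zinc-binding glycoprotein of prostate fluid. AZGP1 had 223, 214 and 202 CPM with DMSO, 67.8, 69.99 and 67.4 with abiraterone and 59.8, 53.4 and 57.1 with enzalutamide. Under olaparib the libraries read 362, 358 and 354 CPM and under talazoparib 345, 338 and 336 CPM. The 5 groups were again apart from each other. Its log2 fold changes were -1.64 ± 0.035 (adjusted p = 1.32e-29) and -1.91 ± 0.035 (adjusted p = 1.29e-31) with abiraterone and enzalutamide, and 0.75 ± 0.032 (adjusted p = 2.28e-19) and 0.68 ± 0.032 (adjusted p = 8.31e-18) with olaparib and talazoparib. MERTK (ENSG00000153208.19, chr2:111898607-112029561, plus strand), a receptor tyrosine kinase for the uptake of dying cells, is expressed far lower. It read 9.51, 8.38 and 9.55 CPM with DMSO, 5.46, 6.35 and 6.53 with abiraterone and 7, 6.39 and 7.37 with enzalutamide. With olaparib it had 15.1, 14.2 and 15 CPM and with talazoparib 14.2, 13.8 and 12.3 CPM. Both pathway inhibitors lay below DMSO and both PARP inhibitors above it in all libraries. MERTK changed by -0.58 ± 0.091 (adjusted p = 1.34e-06) and -0.40 ± 0.088 (adjusted p = 0.000207) with abiraterone and enzalutamide, and by 0.69 ± 0.083 (adjusted p = 2.23e-08) and 0.55 ± 0.083 (adjusted p = 2.08e-06) with olaparib and talazoparib.

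PMEPA1 (ENSG00000124225.16, chr20:57648392-57711536, minus strand) encodes a membrane protein that binds NEDD4 ubiquitin ligases and dampens TGF-beta signaling, and its promoter is shown above. PMEPA1 fell from 353, 340.5 and 333 CPM with DMSO to 49.1, 48.2 and 48.3 with abiraterone and 35.6, 32.8 and 32.5 with enzalutamide. Olaparib libraries held 458, 461 and 447 CPM and talazoparib libraries 416, 435 and 422 CPM. All groups were apart, and the spread within each was small beside the gaps. The log2 fold changes were -2.82 ± 0.035 (adjusted p = 2.39e-36) and -3.35 ± 0.036 (adjusted p = 2.06e-38) with the pathway inhibitors, and 0.41 ± 0.03 (adjusted p = 3.52e-13) and 0.31 ± 0.03 (adjusted p = 3.82e-10) with olaparib and talazoparib.

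BMPR1B (ENSG00000138696.11, chr4:94757955-95158448, plus strand), a receptor kinase for bone morphogenetic proteins, had the largest mean fall of the 50 genes with the pathway inhibitors. From 39, 36.9 and 39.9 CPM with DMSO it dropped to 4.76, 4.13 and 3.88 with abiraterone and 3.23, 3.21 and 4 with enzalutamide. It stood at 45.7, 45.7 and 41.8 CPM with olaparib and 39.9, 41.6 and 43.1 CPM with talazoparib. All olaparib libraries lay above DMSO, and a talazoparib library equalled a DMSO library within rounding. BMPR1B changed by -3.18 ± 0.091 (adjusted p = 2.87e-23) with abiraterone and -3.46 ± 0.092 (adjusted p = 3.48e-24) with enzalutamide. Its rise with olaparib, 0.20 ± 0.068 (adjusted p = 0.0203), was lost with total count scaling (0.16, adjusted p = 0.0711). It was also lost without DMSO replicate B (0.17, adjusted p = 0.107), olaparib replicate A (0.17, adjusted p = 0.114) or olaparib replicate B (0.17, adjusted p = 0.111). Talazoparib's change of 0.11 missed the threshold (adjusted p = 0.255), so BMPR1B had no shared PARP call.

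LIFR (ENSG00000113594.10, chr5:38474668-38608354, minus strand) encodes the receptor of leukemia inhibitory factor. LIFR read 182, 191 and 202 CPM with DMSO, 61.7, 64.1 and 61.1 with abiraterone and 79, 77.7 and 85.9 with enzalutamide, the lower level being that of abiraterone. Olaparib raised it to 272, 272 and 254 CPM and talazoparib to 241, 217 and 227 CPM. No group overlapped DMSO. Its changes were -1.62 ± 0.042 (adjusted p = 1.36e-23), -1.25 ± 0.041 (adjusted p = 4.12e-21), 0.47 ± 0.039 (adjusted p = 6.71e-11) and 0.25 ± 0.039 (adjusted p = 8.13e-06) with abiraterone, enzalutamide, olaparib and talazoparib. Of the other surface genes, ANKH, which exports pyrophosphate, fell by 1.41 and 1.65 with abiraterone and enzalutamide, and SLC26A2, a sulfate transporter, by 0.83 and 0.87. No PARP inhibitor moved them past the threshold in the panel.

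Among signaling genes, FKBP5 (ENSG00000096060.15, chr6:35573585-35728583, minus strand) encodes a co-chaperone of steroid receptors. FKBP5 measured 826, 838 and 857 CPM with DMSO, 126, 132 and 132 with abiraterone and 119, 118 and 124 with enzalutamide. Olaparib libraries measured 1112, 1127 and 1095 CPM and talazoparib libraries 1065, 1049 and 1090.0 CPM. The 5 groups did not overlap, with olaparib highest and enzalutamide lowest. Log2 fold changes were -2.69 ± 0.028 (adjusted p = 1.08e-38) and -2.81 ± 0.028 (adjusted p = 1.92e-39) with the pathway inhibitors, and 0.40 ± 0.025 (adjusted p = 6.99e-15) and 0.35 ± 0.025 (adjusted p = 4.71e-13) with olaparib and talazoparib. MAK (ENSG00000111837.12, chr6:10762723-10838553, minus strand), a kinase first found in male germ cells, is a low-level gene whose libraries held 6.69, 5.12 and 5.9 CPM with DMSO. It held 1.4, 1.46 and 1.29 CPM with abiraterone and 1.03, 1.13 and 0.862 with enzalutamide, and 8.11, 8.64 and 9.14 with olaparib and 9.5, 8.31 and 8.73 with talazoparib. Every PARP inhibitor library lay above and every pathway inhibitor library below DMSO. MAK changed by -2.09 ± 0.14 (adjusted p = 7.16e-15) and -2.54 ± 0.15 (adjusted p = 6.26e-17) with abiraterone and enzalutamide, and by 0.55 ± 0.12 (adjusted p = 0.000337) and 0.59 ± 0.12 (adjusted p = 0.000164) with olaparib and talazoparib.

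The remaining signaling genes spread over the groups of the sorting. CAMKK2, a calcium-dependent kinase that activates AMPK, fell by 1.11 with abiraterone and rose by 0.37 with olaparib. STK39, a kinase of ion cotransporters whose promoter is shown above, fell by 1.74 with abiraterone and 2.51 with enzalutamide and rose by 0.25 and 0.26 with olaparib and talazoparib. INPP4B, a lipid phosphatase that counters AKT signaling, fell by 2.47 and 3.14 and rose by only 0.15 and 0.16. GUCY1A1, a subunit of the nitric oxide receptor, changed by -0.89 with abiraterone and 0.30 with olaparib, and RAB4A, a GTPase of endosome recycling, by -0.61 and 0.21. The tyrosine phosphatase PTPN21 changed by -2.84 and -3.28 with the pathway inhibitors and rose with olaparib (0.22), while talazoparib's change of 0.02 missed the threshold. The direct test of talazoparib against olaparib gave PTPN21 -0.20 ± 0.042 (adjusted p = 0.00248). CDC14B, a phosphatase of the cell cycle, showed -0.94 with abiraterone and 0.20 with olaparib. SGK1, a kinase induced by steroids, fell by 1.10 and 1.54 and had no call with either PARP inhibitor alone. AKT1 moved little, past the threshold with enzalutamide (-0.14) and olaparib (0.08) and not with abiraterone (-0.04).

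GNAI3 (ENSG00000065135.12, chr1:109548615-109600195, plus strand), an inhibitory G protein subunit, was the signaling gene on which all 4 agents agreed. GNAI3 stood at 111, 114 and 122 CPM with DMSO, 93.9, 93.7 and 93.4 with abiraterone and 94.3, 93.9 and 92.2 with enzalutamide. Olaparib libraries were at 99.9, 104 and 103 CPM and talazoparib libraries at 105, 106 and 109 CPM. All treated libraries lay below the DMSO libraries, by little in the case of talazoparib. The changes were -0.31 ± 0.033 (adjusted p = 6.8e-10), -0.31 ± 0.033 (adjusted p = 4.42e-10), -0.18 ± 0.033 (adjusted p = 3.88e-05) and -0.12 ± 0.032 (adjusted p = 0.00514) with abiraterone, enzalutamide, olaparib and talazoparib, and the call for talazoparib was lost without DMSO replicate C, at -0.08 (adjusted p = 0.0888).

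Of the nuclear factors, TSC22D1 (ENSG00000102804.16, chr13:44432143-44577147, minus strand) encodes a leucine zipper protein induced by TGF-beta. TSC22D1 was at 121, 121 and 115 CPM with DMSO, 76.4, 72.6 and 76.2 with abiraterone and 71.8, 73.1 and 73.7 with enzalutamide. It was at 207, 208 and 212 CPM with olaparib and 183, 196 and 198 CPM with talazoparib. PARP inhibitor libraries were all above DMSO and pathway inhibitor libraries all below. Its rises were near its falls in size: -0.66 ± 0.034 (adjusted p = 2.07e-18) and -0.71 ± 0.033 (adjusted p = 2.7e-19) with abiraterone and enzalutamide, 0.81 ± 0.032 (adjusted p = 3.22e-20) and 0.70 ± 0.032 (adjusted p = 3.85e-18) with olaparib and talazoparib. ARID5B (ENSG00000150347.17, chr10:61901684-62096944, plus strand), a DNA-binding protein that recruits a histone demethylase, was the only gene of the 50 that both pathway inhibitors raised. ARID5B had 81.6, 85.1 and 83.9 CPM with DMSO, 101, 101 and 97.2 with abiraterone and 113, 112 and 115 with enzalutamide. Under olaparib it had 113, 116 and 108 CPM and under talazoparib 115, 113 and 106 CPM. All 12 libraries of the single agents lay above all DMSO libraries. Its changes were 0.26 ± 0.043 (adjusted p = 8.28e-06), 0.44 ± 0.043 (adjusted p = 4.04e-10), 0.42 ± 0.043 (adjusted p = 3e-09) and 0.41 ± 0.043 (adjusted p = 6.22e-09) with abiraterone, enzalutamide, olaparib and talazoparib.

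ELL2, an elongation factor of RNA polymerase II, had the widest gap between the inhibitor classes among the nuclear factors. It fell by 2.73 with abiraterone and 2.98 with enzalutamide, and its rises with olaparib and talazoparib were 0.19 and 0.11. PIAS1, a SUMO ligase, changed by -0.60 and -0.41 with the pathway inhibitors and 0.24 and 0.14 with the PARP inhibitors. NCOA4, a nuclear receptor coactivator that also delivers ferritin for breakdown, changed by -0.13, -0.15, 0.17 and 0.20 in that order. ZBTB10, a zinc finger protein, fell by 1.11 and 1.27 and rose with olaparib only, by 0.15. SRF, the factor of immediate early and muscle genes, showed -0.12 with enzalutamide and 0.14 with olaparib, and its abiraterone change of -0.11 missed the threshold (adjusted p = 0.0502). ZMIZ1, a coactivator related to PIAS proteins, rose by 0.17 with abiraterone and not with enzalutamide (0.01), and it fell with talazoparib (-0.10, adjusted p = 0.0404) but not with olaparib (-0.09, adjusted p = 0.0822). The direct test of enzalutamide against abiraterone gave ZMIZ1 -0.16 ± 0.038 (adjusted p = 0.00248).

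The cytoskeleton and scaffold genes fell with the pathway inhibitors except ACTN1, an actin crosslinker, whose changes of -0.05 and -0.01 missed the threshold. IQGAP2, a scaffold of small GTPases, fell most, by 2.35 with abiraterone and 2.67 with enzalutamide. HOMER2, a scaffold of calcium signaling, changed by -1.45, -1.50, 0.31 and 0.25 with abiraterone, enzalutamide, olaparib and talazoparib. KRT19, an epithelial keratin, changed by -0.79, -1.15, 0.40 and 0.57 in that order. MAP7, which binds microtubules, fell by 0.27 and 0.35 and rose with olaparib by 0.08. PDLIM5, an actin-bound adaptor, fell by 0.94 and 1.04 and fell with talazoparib (-0.16) but not with olaparib (0.04). Set directly against olaparib, talazoparib changed PDLIM5 by -0.20 ± 0.04 (adjusted p = 0.00189).

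In the secretory and metabolic list, PGM3 (ENSG00000013375.17, chr6:83147324-83193936, minus strand) and UAP1 encode successive enzymes on the way to UDP-N-acetylglucosamine, the sugar donor of glycoproteins. PGM3 read 91.9, 95.4 and 98.2 CPM with DMSO, 61.4, 61.1 and 59.8 with abiraterone and 56, 59.4 and 57.3 with enzalutamide. Olaparib brought it to 81.7, 81.5 and 79.5 CPM and talazoparib to 80.7, 82.8 and 77.5 CPM. All 12 libraries of the single agents lay below DMSO. PGM3 changed by -0.65 ± 0.037 (adjusted p = 6.84e-17), -0.73 ± 0.037 (adjusted p = 2.32e-18), -0.24 ± 0.036 (adjusted p = 2.26e-06) and -0.25 ± 0.036 (adjusted p = 1.17e-06) with abiraterone, enzalutamide, olaparib and talazoparib. UAP1 fell by 1.40 and 1.62 with abiraterone and enzalutamide and by 0.14 with olaparib, while talazoparib's -0.05 missed the threshold (adjusted p = 0.124).

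LMAN1 (ENSG00000074695.6, chr18:59327823-59359265, minus strand) encodes a cargo receptor that carries glycoproteins from the endoplasmic reticulum to the Golgi. LMAN1 libraries held 228, 224 and 225 CPM with DMSO, 142, 138 and 146 with abiraterone and 150.3, 145 and 153 with enzalutamide. They held 197, 199.9 and 192 CPM with olaparib and 203, 202 and 212 CPM with talazoparib. All single-agent libraries lay below DMSO, the PARP inhibitors between DMSO and the pathway inhibitors. The changes were -0.67 ± 0.029 (adjusted p = 1.59e-20), -0.59 ± 0.028 (adjusted p = 3.32e-19), -0.20 ± 0.028 (adjusted p = 4e-07) and -0.13 ± 0.028 (adjusted p = 0.00027) in the order abiraterone, enzalutamide, olaparib and talazoparib. NGLY1, which strips sugars from misfolded glycoproteins, fell by 0.41 and 0.43 with the pathway inhibitors and had no call with olaparib (-0.06) or talazoparib (-0.07).

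PLPP1 (ENSG00000067113.17, chr5:55424854-55534969, minus strand), a lipid phosphate phosphatase, belonged to the opposed genes. PLPP1 had 248, 246 and 241 CPM with DMSO, 188, 189 and 187 with abiraterone and 148, 148 and 146 with enzalutamide. It had 320.4, 311 and 310.4 CPM with olaparib and 309, 334 and 333 CPM with talazoparib. DMSO lay between the inhibitor classes with no overlap. PLPP1 changed by -0.38 ± 0.031 (adjusted p = 1.22e-12) and -0.73 ± 0.032 (adjusted p = 1.88e-20) with abiraterone and enzalutamide, and by 0.36 ± 0.031 (adjusted p = 1.17e-11) and 0.41 ± 0.031 (adjusted p = 7.08e-13) with olaparib and talazoparib. ALDH1A3, which makes retinoic acid, fell by 1.75 and 1.97 and rose by 0.17 and 0.15. DBI, the acyl-CoA binding protein, fell by 1.04 and 1.14 and by 0.09 with olaparib only. TPD52, a vesicle trafficking protein, fell by 1.07 and 0.96 and by 0.06 with olaparib only, and its counts are uncertain because a coding gene overlaps it on the same strand. ABHD2 fell by 0.64 and 1.01 and rose by 0.06 with olaparib only. VAPA, which tethers endoplasmic reticulum membranes, fell by 0.12 and 0.11, and TMEM50A, a membrane protein, by 0.20 and 0.18, neither with a call for a PARP inhibitor alone.

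In the turnover list, HERC3 (ENSG00000138641.18, chr4:88592434-88708541, plus strand) encodes a ubiquitin ligase, and its counts are uncertain because a readthrough gene of the same symbol overlaps it and held 584, 826 and 840 counts with DMSO. HERC3 fell from 102, 104 and 107 CPM with DMSO to 17.8, 15.9 and 15.1 with abiraterone and 10.1, 8.33 and 8.55 with enzalutamide. It read 132, 128 and 132 CPM with olaparib and 136, 118 and 123 CPM with talazoparib. All groups were apart from DMSO. HERC3 changed by -2.68 ± 0.082 (adjusted p = 3.57e-15) and -3.55 ± 0.088 (adjusted p = 1.44e-16), its enzalutamide fall being the largest of the 50 with either drug, and by 0.32 ± 0.066 (adjusted p = 0.000869) and 0.26 ± 0.066 (adjusted p = 0.00482) with olaparib and talazoparib. APPBP2, a substrate receptor of ubiquitin ligases, changed by -0.59, -0.60, 0.10 and 0.09 with abiraterone, enzalutamide, olaparib and talazoparib. TNFAIP8, a survival protein induced by TNF, fell by 1.41 and 1.42, and ADRM1, a ubiquitin receptor of the proteasome, by 0.27 and 0.30, and neither had a call for a PARP inhibitor alone.

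**Figure D2:**
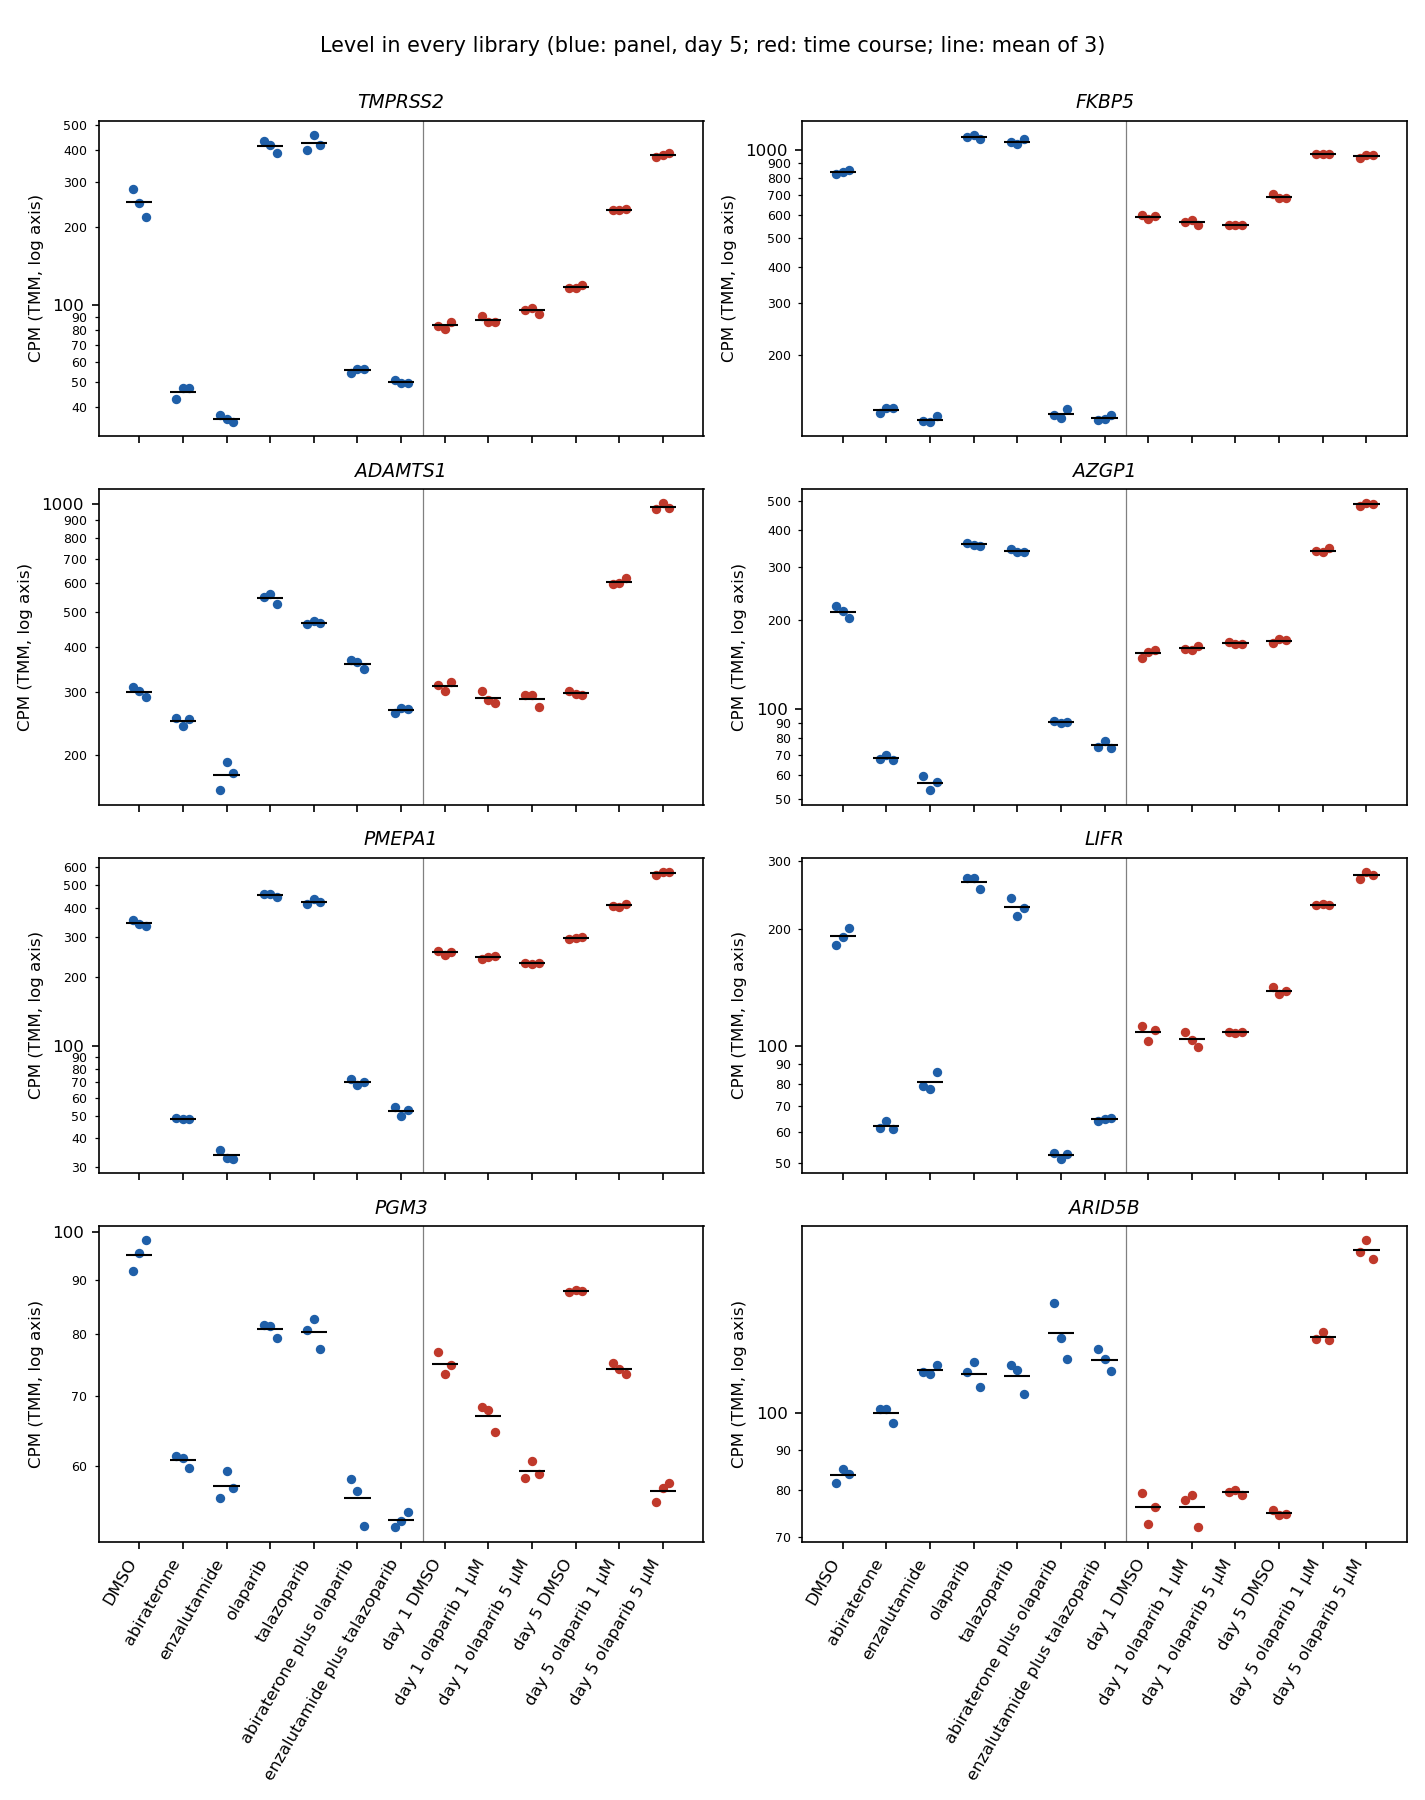
CPM (log axis) in each of the 39 libraries for 8 genes, with points for libraries and lines for group means, panel and time course scaled apart. In the panel, TMPRSS2 libraries lie between 35 and 47.4 CPM with abiraterone or enzalutamide alone and between 391 and 458 with a PARP inhibitor alone.

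The combinations ask whether a PARP inhibitor alters androgen response genes while the pathway is inhibited. Abiraterone plus olaparib lowered 45 of the 50 against DMSO (all genes 31.1%) and raised 3 (all genes 31.1%). Enzalutamide plus talazoparib lowered 45 (all genes 31.3%) and raised 2 (all genes 31.2%). Set against abiraterone alone, the addition of olaparib raised 24 genes (all genes 14.4%) and lowered 9 (all genes 14.7%), with a median of 0.11. Set against enzalutamide alone, the addition of talazoparib raised 18 (all genes 16.5%) and lowered 10 (all genes 17.9%), with a median of 0.02. Without replicate C of enzalutamide plus talazoparib, 6 in place of 10 fell. These additions share no library with olaparib or talazoparib against DMSO, but they share the abiraterone and enzalutamide libraries with the sorting. Of the 23 opposed genes, olaparib added to abiraterone raised 17 and lowered 2, and talazoparib added to enzalutamide raised 14 and lowered 3. Of all 600 genes sorted in the same way, 46% and 45% rose and 4.83% and 5.67% fell in these additions.

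TMPRSS2 read 54, 56 and 56.4 CPM with abiraterone plus olaparib and 51.1, 49.6 and 49.4 CPM with enzalutamide plus talazoparib. All 6 lay above the matching single-inhibitor libraries and far under DMSO. Talazoparib added to enzalutamide changed TMPRSS2 by 0.48 ± 0.089 (adjusted p = 0.000599) and olaparib added to abiraterone by 0.27 ± 0.089 (adjusted p = 0.0306). The latter call was near the threshold and was lost in some settings: without abiraterone replicate A it was 0.22 (adjusted p = 0.136) and without replicate C 0.29 (adjusted p = 0.0583). Without replicate A, B or C of the combination it was 0.28, 0.27 and 0.26 (adjusted p = 0.0603, 0.0816 and 0.0776), and with no filter on low counts 0.27 (adjusted p = 0.052).

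PMEPA1 and INPP4B rose with a PARP inhibitor while the pathway was inhibited. PMEPA1 had 72.3, 68.1 and 70.02 CPM with abiraterone plus olaparib and 54.8, 50.01 and 53 CPM with enzalutamide plus talazoparib, all above the single pathway inhibitors. The added PARP inhibitor changed PMEPA1 by 0.53 ± 0.037 (adjusted p = 1.36e-13) on abiraterone and by 0.65 ± 0.038 (adjusted p = 8.63e-16) on enzalutamide. INPP4B changed by 0.37 ± 0.079 (adjusted p = 0.000458) and 0.66 ± 0.084 (adjusted p = 1.38e-07) in the same additions. ADAMTS1 reached 367, 361 and 348 CPM with abiraterone plus olaparib, above all DMSO libraries, and 262, 269 and 268 CPM with enzalutamide plus talazoparib, below them. Against DMSO it thus ended at 0.26 ± 0.044 (adjusted p = 3.13e-05) with the former and -0.17 ± 0.044 (adjusted p = 0.00232) with the latter. AZGP1 read 91.3, 90.1 and 90.5 CPM and 74.9, 78.2 and 73.9 CPM in these groups, between the pathway inhibitors and DMSO. TSC22D1 read 98.4, 98 and 102 CPM and 87.8, 90.7 and 90.8 CPM, again in between. MERTK returned near to DMSO, with 7.78, 8.41 and 7.61 CPM and 8.6, 9.76 and 9.66 CPM. With abiraterone plus olaparib MERTK was still lower than DMSO past the threshold. With enzalutamide plus talazoparib it did not differ past the threshold from DMSO (0.03 ± 0.085, adjusted p = 0.802).

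LIFR and PLPP1 turned. LIFR, which olaparib and talazoparib raised on their own, read 53, 51.3 and 52.8 CPM with abiraterone plus olaparib and 64.3, 64.8 and 65.4 CPM with enzalutamide plus talazoparib, all below the single pathway inhibitors. The additions changed LIFR by -0.25 ± 0.046 (adjusted p = 8.1e-05) on abiraterone and -0.32 ± 0.043 (adjusted p = 6.59e-07) on enzalutamide. PLPP1 read 166, 163 and 155 CPM and 135, 127 and 124 CPM, and the additions changed it by -0.22 ± 0.032 (adjusted p = 1.3e-06) and -0.19 ± 0.032 (adjusted p = 9.76e-06). These 2 genes alone among the 23 opposed genes were lowered by the added PARP inhibitor in both pairs, and PIAS1 was lowered only in the enzalutamide pair (-0.15 ± 0.035, adjusted p = 0.00128). FKBP5 did not pass the threshold on top of a pathway inhibitor, at 124, 122 and 130.1 CPM and 119, 120.3 and 124 CPM. Its added changes were -0.05 ± 0.028 (adjusted p = 0.159) and 0.01 ± 0.028 (adjusted p = 0.759). The olaparib value for FKBP5 did so with total count scaling (-0.08, adjusted p = 0.0282) and without abiraterone replicate A (-0.08, adjusted p = 0.0457) or combination replicate C (-0.08, adjusted p = 0.0413). CAMKK2 was alike, with 0.01 ± 0.048 (adjusted p = 0.95) and 0.02 ± 0.047 (adjusted p = 0.797).

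MAK read 1.82, 1.5 and 2.03 CPM with abiraterone plus olaparib and 1.04, 0.825 and 0.995 CPM with enzalutamide plus talazoparib, and neither addition passed the threshold (0.35 and -0.08, adjusted p = 0.108 and 0.803). HERC3 had 25.2, 19.7 and 19.9 CPM and 10.9, 9.99 and 11 CPM, and rose with olaparib on abiraterone (0.40 ± 0.096, adjusted p = 0.00387). Talazoparib on enzalutamide (0.25, adjusted p = 0.0923) passed the threshold for HERC3 without enzalutamide replicate A (0.33, adjusted p = 0.042), with no filter, DESeq2, a replicate block, or only the groups compared (adjusted p = 0.00286, 0.0482, 0.0229 and 0.0267). BMPR1B stayed low at 4.07, 4.93 and 3.04 CPM and 4, 3.82 and 4.45 CPM, with added changes of -0.06 and 0.22 that missed the threshold. Among the concordant genes, ARID5B read 138, 124 and 117 CPM and 120.3, 117 and 113 CPM, and olaparib added 0.34 ± 0.042 (adjusted p = 2.96e-07) on abiraterone where talazoparib added 0.04 ± 0.041 (adjusted p = 0.452) on enzalutamide.

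LMAN1 went lower still in the combinations, to 117, 118 and 116 CPM and 123, 121 and 123 CPM, changing by -0.28 ± 0.029 (adjusted p = 1.75e-09) and -0.29 ± 0.029 (adjusted p = 5.32e-10) against the single pathway inhibitors. GNAI3 read 91.5, 87.7 and 90.8 CPM and 88.1, 86.8 and 83.2 CPM, and the added talazoparib changed it by -0.12 ± 0.033 (adjusted p = 0.00478), a call lost without combination replicate C (-0.08, adjusted p = 0.0928). PGM3 read 58.4, 56.9 and 52.7 CPM and 52.5, 53.3 and 54.3 CPM. Its group means were thus lowest in the combinations, though the added changes were small, -0.12 ± 0.039 (adjusted p = 0.0218) for olaparib and -0.11 ± 0.038 (adjusted p = 0.0217) for talazoparib. The olaparib call for PGM3 was lost without abiraterone replicate B (-0.11, adjusted p = 0.0543) or combination replicate C (-0.08, adjusted p = 0.17). Talazoparib's call was lost with no filter on low counts (-0.10, adjusted p = 0.0643) and without enzalutamide replicate B (-0.09, adjusted p = 0.112). It was lost as well without combination replicate A, B or C (-0.09, -0.10 and -0.11, adjusted p = 0.12, 0.0896 and 0.0558).

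A test of departure from additivity asks whether a combination's log2 change differs from the sum of its drugs. With abiraterone and olaparib, 13 of the 50 genes lay below the sum (all genes 8.08%) and 4 above it (all genes 4.74%). With enzalutamide and talazoparib these were 15 (all genes 7.28%) and 4 (all genes 5.32%), the latter 7 without replicate A of the combination. The smallest p-values were those of PLPP1, FKBP5 and LIFR. PLPP1 departed by -0.58 ± 0.044 (adjusted p = 1.77e-11) with abiraterone and olaparib and -0.60 ± 0.044 (adjusted p = 7.77e-12) with enzalutamide and talazoparib. For FKBP5 the departures were -0.46 ± 0.038 (adjusted p = 1.46e-10) and -0.33 ± 0.037 (adjusted p = 1.3e-07), opposite in sign to its rise with a PARP inhibitor alone. For LIFR they were -0.72 ± 0.06 (adjusted p = 1.39e-09) and -0.57 ± 0.058 (adjusted p = 7.84e-08). TSC22D1, AZGP1, CAMKK2 and CDC14B also lay below the sum in both pairs: TSC22D1 by -0.41 and -0.40, AZGP1 by -0.34 and -0.26, CAMKK2 by -0.37 and -0.37, and CDC14B by -0.33 and -0.32. IQGAP2 and ZMIZ1 lay above the sum in both, IQGAP2 by 0.16 and 0.22 and ZMIZ1 by 0.31 and 0.33. INPP4B lay above it with enzalutamide and talazoparib (0.50 ± 0.099, adjusted p = 0.000657), as did PMEPA1 (0.34 ± 0.048, adjusted p = 5.76e-06). TMPRSS2 lay below the sum with abiraterone and olaparib (-0.45, adjusted p = 0.0169). That call was lost with only the groups compared (adjusted p = 0.0735) or without combination replicate A (adjusted p = 0.0505). With enzalutamide and talazoparib it missed the threshold (-0.29, adjusted p = 0.124), though not with DESeq2 or without DMSO replicate A. For MAK that pair gave -0.66 (adjusted p = 0.0315), a call lost without any 1 of several libraries.

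**Figure D3:**
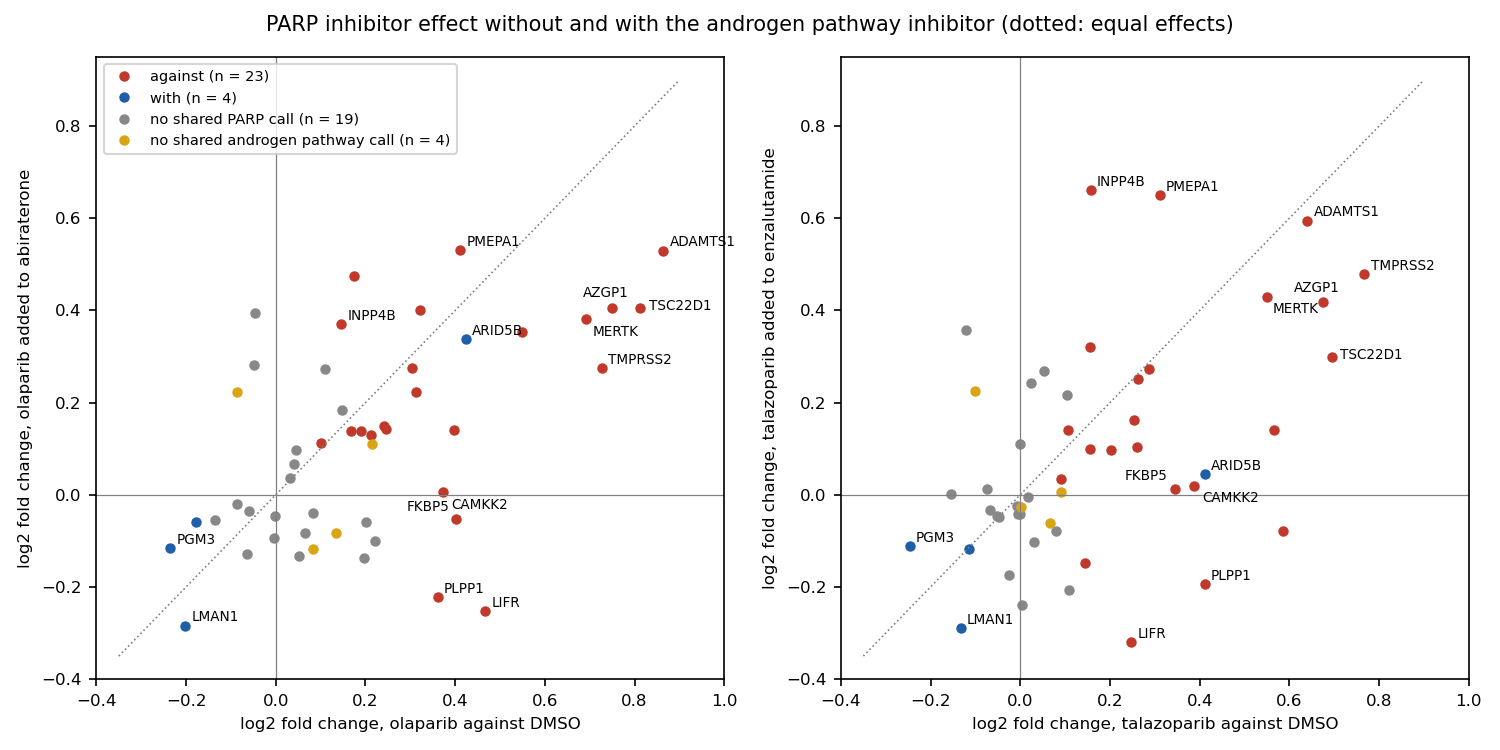
Log2 fold change of a PARP inhibitor added to an androgen pathway inhibitor (vertical axis) against that of the PARP inhibitor alone (horizontal axis) for the 50 genes, with color for the sorting and a dotted line of equal effects. LIFR and PLPP1 lie right of 0 and below 0 in both pairs, while FKBP5 and CAMKK2 lie near 0 on the vertical axis.

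Drugs of a class were also set against each other directly. They have different structures and were used at different concentrations, so the values compare the treatments as given. Enzalutamide against abiraterone gave 23 of the 50 genes lower (all genes 10.1%) and 5 higher (all genes 9.78%), with a median of -0.10. HERC3 (-0.87 ± 0.11, adjusted p = 1.15e-05), STK39 (-0.76 ± 0.029, adjusted p = 7.14e-20), INPP4B (-0.67 ± 0.087, adjusted p = 5.47e-07) and PMEPA1 (-0.53 ± 0.039, adjusted p = 7.4e-13) were lower with enzalutamide. ADAMTS1, at -0.49 ± 0.045 (adjusted p = 9.74e-08), was so too. LIFR went the other way, at 0.38 ± 0.043 (adjusted p = 1.35e-07), with PIAS1 (0.19), ARID5B (0.18), RAB4A (0.12) and TPD52 (0.11). Talazoparib against olaparib gave 10 genes lower (all genes 5.25%) and 2 higher (all genes 3.11%), with a median of -0.06. The lower count was 6 without replicate C of olaparib or of talazoparib. DBI and UAP1 were the higher genes, each by 0.09. This count of 2 was 1 without olaparib replicate A or talazoparib replicate B, and 0 without olaparib replicate B or C or talazoparib replicate C. ADAMTS1 (-0.22 ± 0.043, adjusted p = 0.00293) and LIFR (-0.22 ± 0.038, adjusted p = 0.000531) were the genes lower with talazoparib by the most. TMPRSS2 did not pass the threshold in this comparison (0.04 ± 0.071), nor did FKBP5 (-0.06 ± 0.025).

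The time course used libraries that took no part in the sorting and asks how the response to olaparib depends on dose and day. After 1 day, olaparib at 1 µM lowered 14 of the 50 genes (all genes 9.52%) and raised 4 (all genes 6.3%), with a median of -0.04. The 14 became 7 without day 1 DMSO replicate 1 and 8 without day 1 olaparib replicate 3, and the 4 became 1 without DMSO replicate 2 and 2 without olaparib replicate 1. At 5 µM for 1 day, 23 genes fell (all genes 23.4%) and 11 rose (all genes 21.6%), with a median of -0.07. After 5 days, olaparib at 1 µM raised 33 (all genes 23.4%) and lowered 6 (all genes 22.9%), with a median of 0.28. At 5 µM for 5 days, 34 rose (all genes 34.4%) and 14 fell (all genes 33.9%), with a median of 0.26 and a median absolute change of 0.36, where all genes had 0.39.

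The 23 opposed genes of the panel all rose with olaparib at 1 µM for 5 days, by 0.14 to 1.03 with a median of 0.49. Among all 600 genes sorted in the same way, 94.7% rose, with a median of 0.31. At 5 µM for 5 days 21 of the 23 rose and 1 fell, with a median of 0.94, where 88.5% of the 600 rose and 3.67% fell, with a median of 0.48. The concordant genes PGM3, LMAN1 and GNAI3 fell at both doses, as did 94.6% at 1 µM and 96.6% at 5 µM of all 789 genes lowered by all 4 agents. ARID5B rose at both doses, by 0.73 and 1.10. Of the 19 genes with no shared PARP call, 8 rose and 1 fell at 1 µM (of all 2598 such genes lowered by both pathway inhibitors, 18.7% and 28.4%), and 10 rose and 9 fell at 5 µM (23.9% and 52.2%). At day 1 the opposed genes did not share a direction: 4 rose and 6 fell at 1 µM (of the 600, 11% and 10%), and 9 rose and 8 fell at 5 µM (31.8% and 28.2%).

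TMPRSS2 shows the late response. At day 1 it read 83, 80.3 and 85.8 CPM with DMSO, 90.2, 85.3 and 86 with olaparib at 1 µM and 95.6, 97 and 92.4 at 5 µM. At day 5 it read 116, 116 and 119 CPM with DMSO, 234, 234 and 235 at 1 µM and 377, 383 and 389 at 5 µM. The day 5 groups rose in steps with dose and without overlap. TMPRSS2 changed by 0.19 ± 0.028 (adjusted p = 2.83e-07) at 5 µM for 1 day, by 1.01 ± 0.026 (adjusted p = 4.25e-27) at 1 µM for 5 days and by 1.71 ± 0.026 (adjusted p = 7.73e-36) at 5 µM for 5 days. The effects of the days differed by 0.94 ± 0.038 (adjusted p = 1.11e-20) at 1 µM and 1.52 ± 0.038 (adjusted p = 1.35e-28) at 5 µM. AZGP1 had 149, 156 and 158 CPM with DMSO at day 1, 159, 158 and 164 at 1 µM and 168, 166 and 166 at 5 µM. By day 5 it had 168, 172 and 170.3 CPM with DMSO, 340.2, 337 and 348 at 1 µM and 484, 492 and 491 at 5 µM. Its rise at 5 µM went from 0.11 at day 1 to 1.52 at day 5, a difference of 1.41 ± 0.032 (adjusted p = 9.89e-30).

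ADAMTS1 changed direction. Day 1 libraries held 312, 301 and 318 CPM with DMSO, 301, 284 and 278 with olaparib at 1 µM and 294, 293 and 272 at 5 µM. Day 5 libraries held 300.1, 296 and 293 CPM with DMSO, 596, 599.8 and 619 at 1 µM and 964, 1001 and 971 at 5 µM. At day 1 a treated library reached the DMSO range at 1 µM, and none did at 5 µM. ADAMTS1 changed slightly at day 1, by -0.11 ± 0.031 (adjusted p = 0.024) at 1 µM and -0.12 ± 0.031 (adjusted p = 0.00542) at 5 µM, and the latter call was lost with total count scaling (-0.07, adjusted p = 0.106). At day 5 it rose by 1.03 ± 0.031 (adjusted p = 1.19e-15) and 1.72 ± 0.032 (adjusted p = 5.73e-20), and at 5 µM the days differed by 1.84 ± 0.044 (adjusted p = 1.44e-17), the most of the 50 genes. PMEPA1 had the same turn, from 260.4, 250.2 and 257 CPM with DMSO at day 1 to 239, 245 and 247 at 1 µM and 231, 228 and 229.8 at 5 µM. At day 5 its libraries held 293, 296 and 299.8 CPM with DMSO, 409, 405 and 414 at 1 µM and 556, 572 and 570.4 at 5 µM. The 5 µM libraries were below DMSO at day 1 and above it at day 5. PMEPA1 changed by -0.16 ± 0.021 (adjusted p = 5.9e-08) and 0.94 ± 0.02 (adjusted p = 3.32e-31) on these days at 5 µM, a difference of 1.09 ± 0.029 (adjusted p = 6.77e-28).

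HERC3 and BMPR1B also fell at day 1 and rose at day 5 at 5 µM. HERC3 read 72.1, 68.5 and 69.9 CPM with DMSO, 66.7, 69.2 and 62.6 at 1 µM and 65.3, 58.9 and 66.8 at 5 µM at day 1, and 92.2, 84.2 and 94.1 CPM with DMSO, 117, 122 and 127 at 1 µM and 168, 173 and 167 at 5 µM at day 5. It changed by -0.14 ± 0.051 (adjusted p = 0.0335) at day 1 and 0.91 ± 0.047 (adjusted p = 5.22e-12) at day 5 at 5 µM. The day 1 call of HERC3 was lost with total count scaling (-0.09, adjusted p = 0.141). It was also lost without DMSO replicate 1 (-0.12, adjusted p = 0.124) or 3 (-0.14, adjusted p = 0.0675) or olaparib replicate 2 (-0.09, adjusted p = 0.137). BMPR1B read 27.5, 27.2 and 27.8 CPM with DMSO, 27, 28.5 and 26.1 at 1 µM and 25.3, 24.6 and 26.5 at 5 µM at day 1, and 33.9, 33.4 and 34.1 CPM with DMSO, 43, 43.2 and 45.1 at 1 µM and 54, 55 and 54.7 at 5 µM at day 5. Its 5 µM changes were -0.11 ± 0.04 (adjusted p = 0.0211) and 0.69 ± 0.035 (adjusted p = 1.08e-19). At day 1 that call was lost with total count scaling (-0.06, adjusted p = 0.196) and without DMSO replicate 3 (-0.10, adjusted p = 0.0641). It was lost as well without olaparib replicate 1 (-0.10, adjusted p = 0.0638) or 2 (-0.09, adjusted p = 0.115). The difference between days was past the threshold for both genes, at 1.04 ± 0.069 (adjusted p = 3.85e-10) and 0.80 ± 0.053 (adjusted p = 9.45e-16).

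FKBP5 rose late, with no dose step past the threshold at day 5. Day 1 levels were 601, 581 and 593 CPM with DMSO, 567, 578 and 555 at 1 µM and 554, 555 and 553 at 5 µM. Day 5 levels were 705, 684 and 686 CPM with DMSO, 969, 968 and 969.6 at 1 µM and 937, 963 and 963 at 5 µM. All treated libraries lay below DMSO at day 1 and above it at day 5. FKBP5 changed by -0.06 ± 0.018 (adjusted p = 0.0115) and -0.09 ± 0.018 (adjusted p = 2.85e-05) at day 1 and by 0.49 ± 0.018 (adjusted p = 7.09e-23) and 0.46 ± 0.018 (adjusted p = 2.11e-23) at day 5, in the order 1 µM and 5 µM. Between the doses at day 5 it differed by -0.02 ± 0.018 (adjusted p = 0.31). PLPP1 also fell and then rose, from 247, 241 and 244 CPM with DMSO at day 1 to 231, 222 and 234 at 1 µM and 209.5, 204 and 204 at 5 µM. At day 5 PLPP1 read 265, 272 and 277 CPM with DMSO, 351, 353 and 348 at 1 µM and 314, 309.8 and 314 at 5 µM, highest at the lower dose. Its 5 µM changes were -0.25 ± 0.022 (adjusted p = 1.2e-11) at day 1 and 0.20 ± 0.022 (adjusted p = 2.07e-10) at day 5, and at day 5 the doses differed by -0.17 ± 0.022 (adjusted p = 4.27e-08).

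Some genes rose from the start. TSC22D1 read 111, 107 and 112 CPM with DMSO at day 1, 116, 117 and 117 at 1 µM and 138, 141 and 141 at 5 µM, and by day 5 it had 87.4, 88.1 and 88.4 CPM with DMSO, 175, 173 and 174 at 1 µM and 243, 242 and 248 at 5 µM. Treated libraries exceeded DMSO at both days and doses, while DMSO itself fell between the days. TSC22D1 changed by 0.35 ± 0.024 (adjusted p = 1.09e-14) at day 1 and 1.48 ± 0.024 (adjusted p = 6.42e-35) at day 5 at 5 µM. MERTK read 5.12, 4.22 and 5.12 CPM with DMSO at day 1, 6.57, 5.59 and 6.08 at 1 µM and 9.94, 9.43 and 9.9 at 5 µM, and by day 5 it had 5.13, 5.69 and 6.07 CPM with DMSO, 9.84, 10.8 and 10.4 at 1 µM and 15.4, 12.9 and 13.9 at 5 µM. Its day 1 rise was the largest of the 50, at 1.02 ± 0.086 (adjusted p = 2.07e-12) after 1 day at 5 µM and 1.33 ± 0.081 (adjusted p = 4.57e-17) after 5 days. The difference between those days, 0.30 ± 0.12 (adjusted p = 0.0303), was lost with total count scaling (0.17, adjusted p = 0.227). It was lost as well without day 1 DMSO replicate 1 (0.26, adjusted p = 0.0907) or 3 (0.25, adjusted p = 0.101) or day 1 olaparib replicate 2 (0.28, adjusted p = 0.0644). The same held without day 5 DMSO replicate 1 (0.24, adjusted p = 0.118) or day 5 olaparib replicate 1 (0.24, adjusted p = 0.0939). ALDH1A3 rose at day 1 by 0.91 ± 0.04 (adjusted p = 1.39e-20) at 5 µM and at day 5 by 1.55 ± 0.033 (adjusted p = 2.65e-31), where its dose step of 1.05 was the largest of the 50.

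MAK had 6.17, 5.54 and 5.3 CPM with DMSO at day 1, 6.08, 6.03 and 5.88 at 1 µM and 6.38, 7.05 and 6.69 at 5 µM, and 5.55, 5.58 and 6.38 CPM with DMSO, 10.46, 9.97 and 10.9 at 1 µM and 14.1, 14 and 13 at 5 µM at day 5. MAK rose by 0.84 ± 0.075 (adjusted p = 7.08e-12) and 1.24 ± 0.073 (adjusted p = 2e-17) at day 5. Its day 1 rise at 5 µM, 0.24 ± 0.08 (adjusted p = 0.0122), was lost without DMSO replicate 3 (0.20, adjusted p = 0.0726) or olaparib replicate 2 (0.21, adjusted p = 0.0631). LIFR had 113, 103 and 110.2 CPM with DMSO at day 1, 109, 104 and 99.6 at 1 µM and 109, 108 and 109 at 5 µM, and 142, 137 and 139 CPM with DMSO, 231, 233 and 231 at 1 µM and 269, 281 and 276 at 5 µM at day 5. It was unmoved by the test at day 1 (-0.06 and 0.00) and rose by 0.73 ± 0.029 (adjusted p = 9.39e-22) and 0.98 ± 0.029 (adjusted p = 6.8e-27) at day 5. ARID5B had 79.5, 72.6 and 76.3 CPM with DMSO at day 1, 77.8, 79 and 71.9 at 1 µM and 79.6, 80.2 and 79 at 5 µM, and 75.5, 74.5 and 74.8 CPM with DMSO, 124, 127 and 123 at 1 µM and 159.6, 165 and 156 at 5 µM at day 5. At day 1 its 5 µM change (0.06, adjusted p = 0.107) passed the threshold with total count scaling (0.11, adjusted p = 0.00263), a minimum count of 50 (0.08, adjusted p = 0.027) or without DMSO replicate 1 (0.10, adjusted p = 0.0243). At day 5 ARID5B rose, with 1.10 ± 0.032 (adjusted p = 3.42e-27) at 5 µM and a difference between days of 1.03 ± 0.045 (adjusted p = 6.6e-21).

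The other concordant genes fell on both days at 5 µM, and more at day 5. PGM3 held 76.9, 73.4 and 74.8 CPM with DMSO at day 1, 68.3, 67.9 and 64.6 at 1 µM and 58.5, 60.7 and 59 at 5 µM, and 87.8, 88.1 and 87.8 CPM with DMSO, 75.1, 74.1 and 73.4 at 1 µM and 55.5, 57.2 and 57.9 at 5 µM at day 5. Its 5 µM changes were -0.34 ± 0.029 (adjusted p = 3.52e-12) and -0.63 ± 0.029 (adjusted p = 7.93e-21) on these days. LMAN1 held 185, 172 and 174 CPM with DMSO at day 1, 163, 166 and 158 at 1 µM and 156, 153 and 156 at 5 µM, and 194, 196 and 193 CPM with DMSO, 169, 165 and 168 at 1 µM and 149.5, 156 and 156 at 5 µM at day 5. It changed by -0.19 ± 0.026 (adjusted p = 1.54e-07) and -0.34 ± 0.026 (adjusted p = 4.59e-14) at 5 µM, and every treated library lay below DMSO of its day. GNAI3 held 125, 119 and 123 CPM with DMSO at day 1, 119, 116 and 112 at 1 µM and 110.4, 109.7 and 114 at 5 µM, and 127, 126 and 119.6 CPM with DMSO, 112, 108 and 105 at 1 µM and 89.7, 93.5 and 91.3 at 5 µM at day 5. GNAI3 changed by -0.14 ± 0.03 (adjusted p = 0.00023) and -0.44 ± 0.03 (adjusted p = 1.18e-15) at 5 µM.

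**Figure D4:**
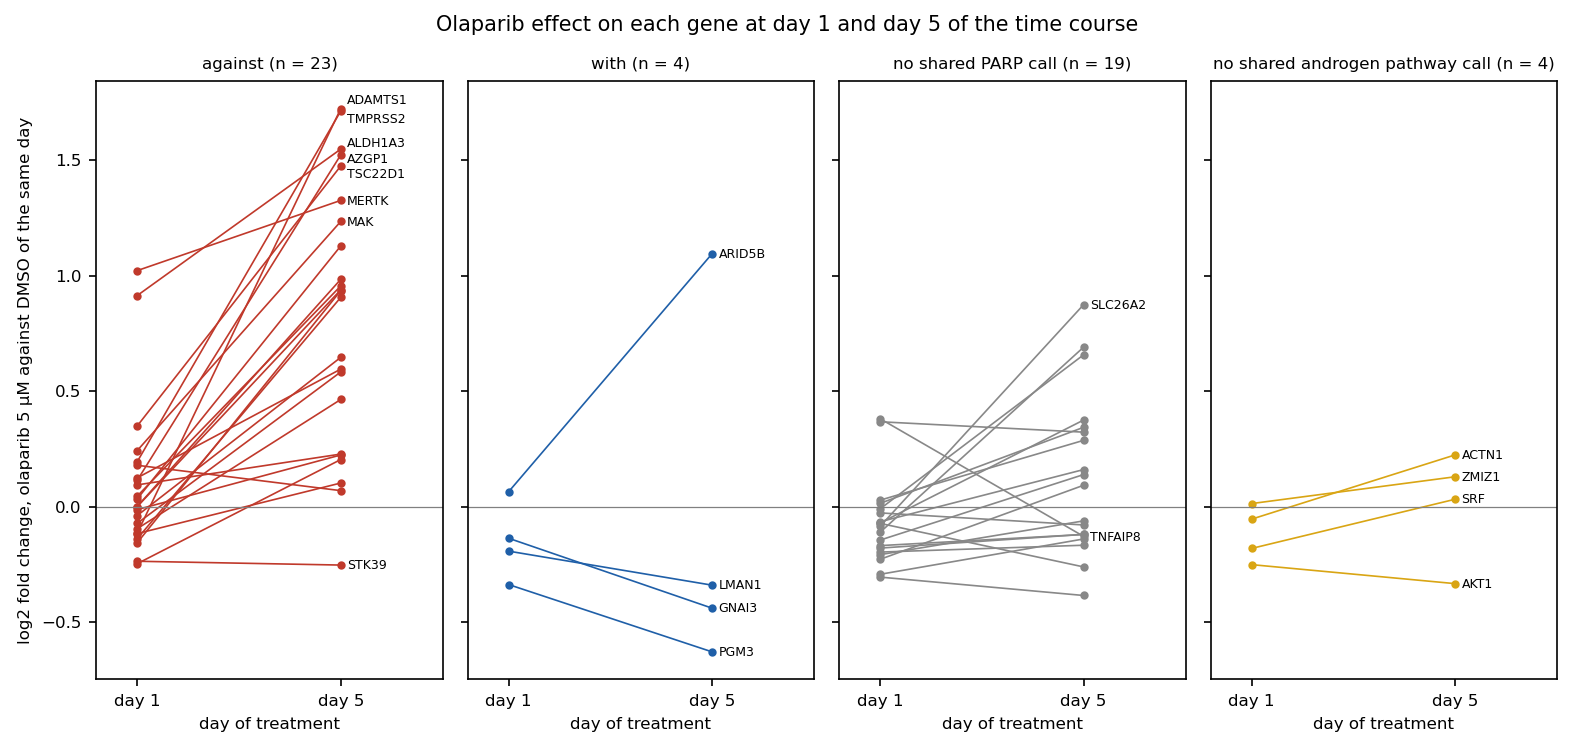
Log2 fold change of olaparib against DMSO of the same day (vertical axis) at 5 µM at day 1 and day 5 (horizontal axis) for the 50 genes, in panels by the sorting. ADAMTS1 goes from -0.12 at day 1 to 1.72 at day 5.

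Tests of the difference between days covered all 50. At 1 µM, the olaparib effect was higher at day 5 than at day 1 for 35 genes (all genes 15.6%) and lower for 2 (all genes 14.2%), ZMIZ1 and GNAI3, with a median difference of 0.29. The 2 became 1 without day 1 DMSO replicate 2, day 1 olaparib replicate 1 or 2, day 5 DMSO replicate 1 or 2, or day 5 olaparib replicate 2 or 3. At 5 µM it was higher for 36 (all genes 27.2%) and lower for 7 (all genes 27.7%), with a median of 0.29. At 1 µM, 21 genes had no call at day 1 and rose at day 5 (all genes 18.6%), 4 rose on both days (3.93%), and 8 fell at day 1 and rose at day 5 (0.87%). At 5 µM, 15 had no call and then rose (16.7%), 9 rose on both days (13.6%), 12 fell on both (15.7%), and 10 fell and then rose (4.12%). TNFAIP8 alone rose at day 1 and fell at day 5 at 5 µM (3.41%), by 0.38 ± 0.043 (adjusted p = 3.58e-09) and -0.13 ± 0.044 (adjusted p = 0.0105).

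The dose step from 1 µM to 5 µM raised 26 of the 50 genes at day 5 (all genes 26.6%) and lowered 17 (all genes 27%). At day 1 it raised 7 (all genes 12.8%) and lowered 12 (all genes 15.9%), and with total count scaling it raised 14 (all genes 15.8%). After ALDH1A3, the largest day 5 steps upward were TMPRSS2 (0.71 ± 0.025, adjusted p = 1.05e-23), ADAMTS1 (0.69 ± 0.031, adjusted p = 2.53e-13) and HOMER2 (0.63 ± 0.025, adjusted p = 1.6e-22). SLC26A2, which no PARP inhibitor moved in the panel, rose by 0.32 at 1 µM and 0.88 at 5 µM. Downward, STK39 (-0.46 ± 0.02, adjusted p = 5.68e-21), PTPN21 (-0.45 ± 0.027, adjusted p = 4.59e-17) and IQGAP2 (-0.31 ± 0.023, adjusted p = 5.54e-14) went from a rise to a fall. STK39 rose by 0.21 at 1 µM and fell by 0.25 at 5 µM, and it was the opposed gene that fell at the higher dose. IQGAP2 rose by 0.19 and fell by 0.12, and PTPN21 rose by 0.29 and fell by 0.17. CAMKK2, which rose by 0.31 at 1 µM, did not pass the threshold at 5 µM (0.07 ± 0.035, adjusted p = 0.0767), and its doses differed by -0.24 ± 0.035 (adjusted p = 6.97e-07). ZMIZ1 went from a fall of 0.28 to a rise of 0.13.

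Between day 1 and day 5 of DMSO, 24 of the 50 rose (all genes 11.1%) and 4 fell (all genes 13.4%), with a median of 0.09. The largest rises were ALDH1A3 (0.66 ± 0.041, adjusted p = 6.6e-15), TMPRSS2 (0.49 ± 0.027, adjusted p = 4.29e-16), HERC3 (0.36 ± 0.049, adjusted p = 2.86e-05) and LIFR (0.36 ± 0.03, adjusted p = 1.49e-11). SGK1 (-0.61 ± 0.12, adjusted p = 0.000301), ZMIZ1 (-0.33 ± 0.029, adjusted p = 7.26e-11), TSC22D1 (-0.32 ± 0.025, adjusted p = 2.1e-12) and ACTN1 (-0.10) fell. Of the 23 opposed genes 14 rose and 1 fell, where 35.8% of all 600 genes sorted in that way rose and 11% fell. The surface list (7 of 9) and the metabolic list (9 of 11) rose most widely, and of the 8 nuclear factors 1 rose and 2 fell.

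By role at day 5 and 5 µM (all genes 34.4% raised, 33.9% lowered), olaparib raised 9 of 9 surface, secreted and transport genes, with a median of 0.98, and 7 of 8 nuclear factors, with a median of 0.59. It raised 7 and lowered 4 of the 12 signaling genes, with a median of 0.27, and raised 4 and lowered 2 of the 6 cytoskeleton genes, with a median of 0.18. The metabolic list had 4 genes raised and 7 lowered of 11, with a median of -0.08, and the turnover list 3 raised and 1 lowered of 4, with a median of 0.16.

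**Figure D5:**
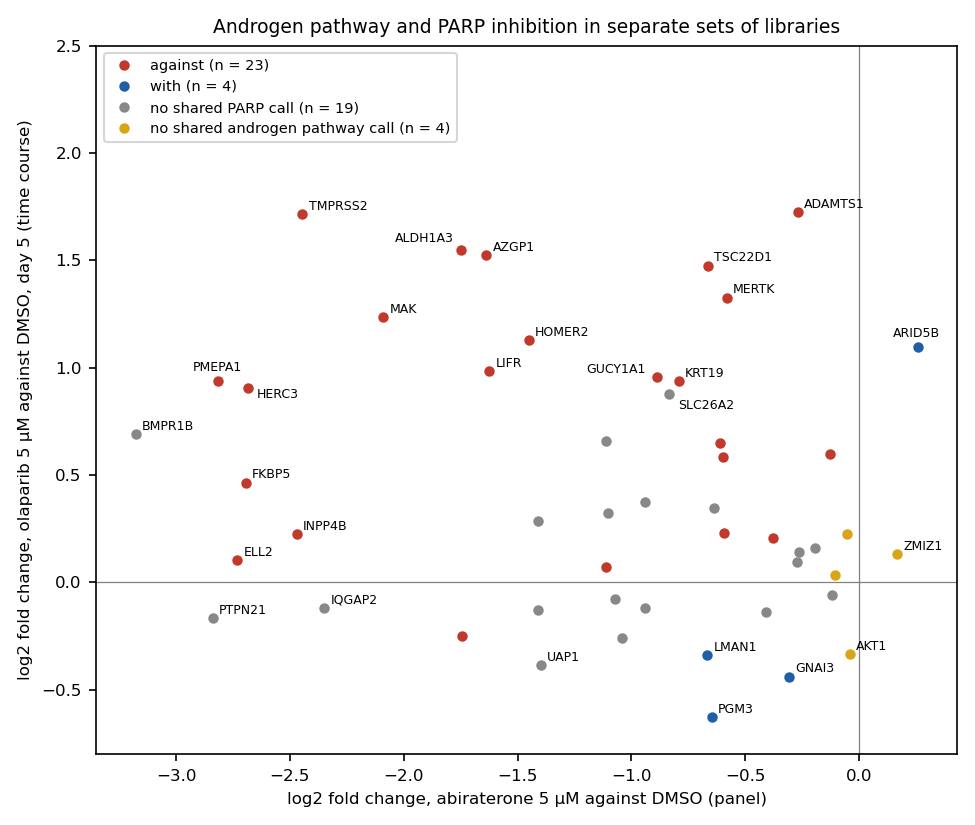
Log2 fold change with olaparib at 5 µM for 5 days in the time course (vertical axis) against that with abiraterone at 5 µM in the panel (horizontal axis) for the 50 genes, in libraries the axes do not share, with color for the sorting. Opposed genes lie left of 0, and 21 of the 23 rose with olaparib.

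Other androgen pathway genes were read beside the 50. FOXA1, a pioneer factor, changed by -0.13 ± 0.023 (adjusted p = 1.91e-05) with abiraterone and 0.13 ± 0.023 (adjusted p = 1.15e-05) with enzalutamide, and by -0.14 ± 0.023 (adjusted p = 5.5e-06) and -0.22 ± 0.023 (adjusted p = 2.07e-09) with olaparib and talazoparib. HOXB13, a prostate homeobox factor, rose by 0.19 and 0.20 with the pathway inhibitors and fell by 0.51 with olaparib at 5 µM for 5 days.

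Androgen targets outside the 50 were read too. KLK2 changed by -2.0 and -2.85 with abiraterone and enzalutamide, by 0.39 and 0.30 with olaparib and talazoparib, and by 1.05 with olaparib at 5 µM for 5 days. SLC45A3, a prostate membrane transporter, fell with the pathway inhibitors, by 3.89 and 4.23, and its rise with olaparib at 1 µM for 5 days (0.10 ± 0.025, adjusted p = 0.00159) became a fall at 5 µM (-0.70 ± 0.025, adjusted p = 5.6e-24). ACSL3, a fatty acid ligase, had the same turn, from 0.13 ± 0.017 (adjusted p = 4.17e-08) to -0.28 ± 0.017 (adjusted p = 3.89e-17). STEAP2, a metal reductase, rose with the pathway inhibitors, by 0.27 and 0.19.

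The p53 targets CDKN1A, MDM2, TP53I3, GDF15 and FDXR all rose with olaparib and with talazoparib in the panel, with medians of 1.01 and 0.99, and at both doses and days of the time course. CDKN1A, the cell cycle inhibitor p21, changed by 2.18 ± 0.053 (adjusted p = 7.76e-17) with olaparib in the panel, by 3.71 ± 0.025 (adjusted p = 1.97e-46) at 5 µM for 1 day and by 4.15 ± 0.026 (adjusted p = 1.04e-47) at 5 µM for 5 days. The proliferation genes MKI67, TOP2A, CCNB1, CDK1 and PCNA all fell with olaparib and talazoparib in the panel, with medians of -0.45 and -0.39, and at 5 µM for 5 days with a median of -2.22. After 1 day, 2 fell and 1 rose at 1 µM, and 4 fell at 5 µM while PCNA rose (0.44 ± 0.024, adjusted p = 1.39e-17). With abiraterone 1 of the 5 fell and 2 rose, and with enzalutamide 2 rose. Their part in the changes of the androgen response genes was not tested.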

How the data were processed

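RNA from 39 libraries of C4-2B cells was measured by stranded mRNA sequencing. Per the labels, the authors trimmed reads with Trim Galore, aligned them to GRCh38 with STAR and quantified them with Salmon, and the deposited values are estimated counts per Ensembl gene for 63187 genes. The values were already whole numbers, and how they were rounded is not stated. Symbols and positions came from an earlier GENCODE release on the same build, and 521 IDs had no symbol. HERC3 has 2 IDs, of which the protein gene was used and the readthrough left out.

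Counts were tested with edgeR 4.0.16 (limma 3.58.1, R 4.3.3): genes with low counts were filtered by group (minimum count 10), scaled by TMM and fitted by robust quasi-likelihood with 1 coefficient per group. The panel (18625 genes) and the time course (18502 genes) were fitted apart. P-values were adjusted by Benjamini-Hochberg over all genes tested, with a threshold of 0.05, and standard errors were derived from the log2 fold change and the F statistic. The 50 genes and all lists were chosen with earlier results of these data known. Levels in every library are given for TMPRSS2 and FKBP5, for the 6 opposed and up to 6 concordant genes with the largest mean PARP inhibitor change, for the 3 largest mean falls and up to 3 rises with the pathway inhibitors, for the 3 smallest p-values of departure from additivity and for the 4 largest differences between days among genes that changed direction. Library totals had a median of 36348316 in the panel and 37545065 in the time course, and the member with the fewest counts reached 332 in some library, so changes in low genes such as MAK and SGK1 are the least precise. The code was tested on simulated data.

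Alternatives were RLE scaling, total count scaling, no filter, a minimum count of 50, DESeq2 1.42.0 with a local fit, a replicate block, fits of only the groups compared, a minimum size of 0.5 for the log2 fold change, and leaving out each library in turn. Promoters were taken from RefSeq and searched on both strands for AGAACA. No library was left out. Some genes of the lists are not reported here.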

Additional observations from a re-analysis of the deposited data

Results flagged for a closer look

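Results were marked here because the same drug moved a gene in opposite directions in 2 settings, with all calls and the tested difference past the threshold. With olaparib at 1 µM, 8 genes fell at day 1 and rose at day 5 (1.6% of all genes changed direction). They are part of the 14 day 1 falls, a count of 7 to 18 with 1 library left out and 8 with total count scaling. At 5 µM, 11 genes changed direction between the days (all genes 7.52%). Their differences, day 5 minus day 1 on the log2 scale, were 1.84 for ADAMTS1, 1.09 for PMEPA1, 1.04 for HERC3, 0.802 for BMPR1B and 0.655 for PIAS1. They were 0.559 for FKBP5, -0.51 for TNFAIP8, 0.451 for PLPP1, 0.321 for ADRM1, 0.284 for MAP7 and 0.219 for ELL2.

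Olaparib moved 4 genes in opposite directions with and without abiraterone (all genes 1.08%), with departures from additivity of -0.72 for LIFR, -0.582 for PLPP1, -0.202 for AKT1 and -0.146 for ABHD2. Talazoparib did so for 4 genes with and without enzalutamide (all genes 1.26%), with departures of -0.604 for PLPP1, -0.568 for LIFR, 0.327 for ZMIZ1 and -0.291 for PIAS1. AKT1, ABHD2 and ZMIZ1 had small changes with the PARP inhibitor alone. Like those of PIAS1, their values were not followed gene by gene under other settings. Groups of 3 libraries were too small for a test of single outlying libraries.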

How the results depend on the processing

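Of 2784 values of the named genes under other settings, 2706 kept their direction and their side of the threshold, 50 kept their direction and lost the threshold, 28 kept it and gained the threshold, and 0 reversed. The named genes here are those with levels given in every library, and most were chosen for large changes or small p-values. Calls of the other androgen response genes were not followed in this way, and not every comparison was included. RLE scaling changed 0 of its 192 values. No gene passed between the opposed and the concordant group under any setting. Adding a replicate block left 704 calls against 706, with 6 lost and 4 gained.

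Total count scaling, which shifted the median of all genes by -0.131 in the day difference at 5 µM, changed several counts. With it, talazoparib lowered 8 genes (all genes 20.6%), 7 lay above the sum for enzalutamide and talazoparib (6.53%), and 7 genes had no shared call of the pathway inhibitors. At day 1, 8 fell (5.78%) and 7 rose (8.64%) with olaparib at 1 µM, and 14 rose from 1 µM to 5 µM (15.8%). The day difference was lower for 5 genes at 1 µM (19.4%) and for 12 at 5 µM (37.4%). A minimum count of 50 gave 7 rises at day 1 with 1 µM (9.43%) and 7 genes above the sum for enzalutamide and talazoparib (8.48%), and DESeq2 gave 7 for the latter (6.79%). RLE scaling, and no filter on low counts, each left 1 rise for talazoparib against olaparib (2.82% and 1.65%). The cause was not tested.

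A minimum absolute log2 fold change of 0.5 removes small changes by its construction. Shares of all genes were not computed at this minimum, so the counts below cannot be set against them. The rises left were 0 with abiraterone, 0 with enzalutamide, 6 with olaparib, 7 with talazoparib, 1 in the abiraterone combination and 0 in the enzalutamide combination, and the falls 0 with olaparib and 0 with talazoparib. Olaparib added to abiraterone kept 0 falls and 2 rises, talazoparib added to enzalutamide 0 and 3, enzalutamide against abiraterone 4 and 0, and talazoparib against olaparib 0 and 0. Departures kept were 2 below and 0 above the sum for abiraterone and olaparib, and 3 and 1 for enzalutamide and talazoparib. With olaparib at 1 µM, falls and rises were 0 and 0 at day 1 and 0 and 12 at day 5, and at 5 µM 0 and 2 at day 1 and 1 and 20 at day 5. The day differences kept were 0 lower and 14 higher at 1 µM and 1 and 19 at 5 µM. The dose step kept 0 and 6 at day 5 and 0 and 2 at day 1, and the vehicle 1 and 1. The sorting then gave 4 opposed and 0 concordant genes, 29 with no shared PARP call and 17 with no shared call of the pathway inhibitors.

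Leaving out each library in turn, the 34 rises with olaparib against DMSO in the panel became 27 to 30, and its 6 falls 4 to 7. For talazoparib the 25 rises became 20 to 24 and the 5 falls 4 to 6. In the same way, 6 to 9 genes fell with talazoparib added to enzalutamide. Talazoparib against olaparib had 6 to 9 falls and 0 to 2 rises, and the departure for enzalutamide and talazoparib 4 to 7 genes above the sum. Olaparib at 1 µM had 7 to 18 falls and 1 to 4 rises at day 1, and its day difference was lower for 1 to 3 genes. MAK, with the lowest counts of the named genes, lost or gained calls with single libraries.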
